A study of Mus musculus with 28 samples.

Results

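The genes described here are 30 mouse genes of cholesterol and fatty acid synthesis, taken by symbol from a fixed list: 16 enzymes of the sterol branch, 9 enzymes of the fatty acid branch, and 5 regulators or transporters of the pathway. They are 30 of the 33411 symbols in the deposited tables, and their values were read in 28 RNA libraries of primary mouse macrophages. Cells make cholesterol from acetyl-CoA through mevalonate, squalene and lanosterol, and make fatty acids from acetyl-CoA through malonyl-CoA, with desaturases and elongases shaping the final chains. Most of these genes are under the SREBP transcription factors, encoded by Srebf1 and Srebf2, which are carried out of the endoplasmic reticulum by SCAP when membrane sterols are low and are held back there by INSIG proteins when sterols are ample. In macrophages the pathway also meets the inflammatory response, because lipopolysaccharide (LPS, a bacterial cell wall component) remodels lipid metabolism and sterol efflux.

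The cells were macrophages grown from the bone marrow of FVB/Hsd mice, taken at day 7 of culture after infection with a vector and selection with puromycin. The hairpin groups carried sh1137 against Wdr82, hairpins against Set1a+Set1b, or a hairpin against Pnuts, and the control groups carried the empty vector LMP or a scrambled hairpin. LPS was given at 10 ng/ml. RNA was either polyA RNA or new RNA, purified through a 45 min pulse of the nucleoside 4sU. The unstranded 4sU table held sh1137 and LMP cells, untreated or given LPS for 45 min, for 2 h or for 4 h. The stranded 4sU table held sh1137 and LMP cells after 1 h of LPS and untreated, and the DRB table held sh1137 and scrambled cells, all given LPS for 45 min, with or without the elongation inhibitor DRB. In the polyA table sh1137 and LMP cells were taken after 4 h of LPS and untreated. The Set1a+Set1b and Pnuts tables each held hairpin and scrambled cells, stranded 4sU RNA, after 45 min of LPS and untreated. All cells had thus been infected and selected, and no library of cells without a vector was used.

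Each condition had 1 library per table, so no comparison of a single pair of libraries was tested. The tests are limma fits within a table on log2(FPKM + 1), with a vector term and an LPS or DRB term, and with the differences that these terms leave unexplained as the error. They leave 3 residual degrees of freedom in the unstranded table of 8 libraries and 1 in the tables of 4. A gene was called at a Benjamini-Hochberg adjusted p under 0.05 over all genes tested. Whether libraries of a table came from separate cultures is not given, so the p-values measure the spread between these libraries, which may be technical. FPKM counts fragments per length of transcript relative to the library, so it is a share of a library, and in bulk RNA a smaller share of expressing cells and less RNA per cell cannot be told apart.

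Macrophage markers dominated the libraries, with 9 markers summing to between 1943 and 12338 FPKM. Lyz2 was listed at 0 with a failed status in 3 of the 4 polyA libraries. Markers of adipocytes summed to at most 1.73 FPKM over 6 genes in any library, and none reached 1 FPKM. Summed markers of other cell types reached at most 13.7 (neutrophil), 4.73 (T cell), 11.2 (fibroblast), 0.72 (erythroid) and 8.07 (mast cell) FPKM in any library, and those of B cells 17.5 FPKM outside the polyA libraries. The number of genes at 1 FPKM or more was 11533 to 13799 per library. The relative depth, read from the steps between low values, differed within a table by 1.59-fold to 3.36-fold. Wdr82 was lower with sh1137 in all 10 of its pairs, for example at 10.3 (sh1137) and 21.6 (LMP) FPKM in untreated unstranded RNA, whereas the Pnuts gene, Ppp1r10, was higher in the libraries labelled Pnuts than in their scrambled controls, at 144 (labelled Pnuts) and 89.5 (scrambled) FPKM untreated. Every direction given below for the libraries labelled Pnuts is read with that. In the Set1a+Set1b table Setd1a, which encodes SET1A, was at 13.5 (hairpins) and 18.1 (scrambled) FPKM after 45 min of LPS and 14.8 (hairpins) and 16.1 (scrambled) FPKM untreated. Setd1b, which encodes SET1B, was at 6.70 (hairpins) and 10.5 (scrambled) FPKM after LPS and 11.8 (hairpins) and 11.3 (scrambled) FPKM untreated, so it was not lower with the hairpins there, and neither gene's hairpin change was called (limma adjusted p = 0.309 for Setd1a and 0.494 for Setd1b).

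Hmgcs1, the HMG-CoA synthase, was listed at 0 FPKM in all 28 libraries, at a locus on an unplaced contig, and was not tested. Its status was failed in 0 libraries, and the symbol had 2 entries, of which the most abundant was this one at 0. An exact 0 in every library can still be a failed estimate. For this enzyme, which cells need to make sterols, it is not read as absent expression. The levels of the other members covered a wide range. Scd1, a stearoyl-CoA desaturase, was below 1 FPKM in most 4sU libraries. Of the 30 members, 28 or 29 passed the filter of a mean of 1 FPKM in each table. Levels below are FPKM, which are per length and can be set side by side between genes. In untreated LMP cells of the unstranded table the most abundant members were Srebf1 at 34.1 FPKM, Acly (ATP citrate lyase, which makes cytosolic acetyl-CoA) at 32.0 FPKM and Insig1 at 20.3 FPKM. In polyA RNA of untreated LMP cells they were Scd2 at 77.9 FPKM, Acly at 60.9 FPKM and Fads1 at 44.1 FPKM. The tables were scaled separately, so levels are compared within a table.

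The reference promoters of 4 members whose RNA moved with LPS are printed below, since SREBPs are known to act at a sterol regulatory element together with NF-Y and Sp1. Each is the 250 bases upstream of the RefSeq start in GRCm38.p6, in the direction of the gene. Capitals mark the letters CACNCCAC (a short form of the sterol element), CCAAT (an NF-Y box) and GGGCGG (an Sp1 box), each searched on both strands. Insig1 is chr5:28071162-28071411 on the plus strand, Srebf2 is chr15:82147019-82147268 on the plus strand, Fasn is chr11:120824548-120824797 on the minus strand, and Elovl6 is chr3:129532136-129532385 on the plus strand.
Insig1: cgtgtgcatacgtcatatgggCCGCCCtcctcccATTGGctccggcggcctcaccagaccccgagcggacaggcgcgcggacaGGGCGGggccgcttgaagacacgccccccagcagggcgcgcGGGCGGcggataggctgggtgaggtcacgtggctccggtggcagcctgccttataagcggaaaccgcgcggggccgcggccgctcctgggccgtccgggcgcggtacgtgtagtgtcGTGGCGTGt
Srebf2: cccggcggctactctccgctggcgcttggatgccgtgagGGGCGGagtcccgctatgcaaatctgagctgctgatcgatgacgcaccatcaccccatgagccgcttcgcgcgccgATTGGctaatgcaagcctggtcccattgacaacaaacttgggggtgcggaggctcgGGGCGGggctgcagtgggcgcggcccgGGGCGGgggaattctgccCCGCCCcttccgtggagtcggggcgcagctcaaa
Fasn: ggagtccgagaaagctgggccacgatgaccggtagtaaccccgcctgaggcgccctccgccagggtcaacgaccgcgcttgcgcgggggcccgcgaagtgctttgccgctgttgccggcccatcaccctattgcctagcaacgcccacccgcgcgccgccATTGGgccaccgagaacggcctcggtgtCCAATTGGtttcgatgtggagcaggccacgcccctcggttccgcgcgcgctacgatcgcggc
Elovl6: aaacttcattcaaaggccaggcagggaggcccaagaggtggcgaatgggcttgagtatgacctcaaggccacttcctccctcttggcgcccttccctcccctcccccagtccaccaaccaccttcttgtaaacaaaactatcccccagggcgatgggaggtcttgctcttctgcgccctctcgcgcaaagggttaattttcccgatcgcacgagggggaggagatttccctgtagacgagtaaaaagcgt
The Insig1 stretch held 1 CACNCCAC, 1 CCAAT and 3 GGGCGG, and that of Srebf2 1 CCAAT and 4 GGGCGG. In the Fasn stretch 3 CCAAT matches were found, 2 of them overlapping on opposite strands, and in the Elovl6 stretch no match to these letters. RefSeq promoters were matched by symbol for 23 of the 30 members. CCAAT was present for 17 of the 23 (73.9%) and in 37.5% of the genes in the table, GGGCGG for 18 (78.3%) and in 35.4%, and CACNCCAC for 3 (13%) and in 6.05%. The longer TCACNCCAC, which contains CACNCCAC, was present for Hmgcs1 and in 1.22% of the genes. A match describes letters in this window and does not show binding, and genes with several listed starts have more than 1 window.

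The first question was how LPS moved the pathway in new RNA over time. Within 45 min to 1 h, 6 members were higher with LPS in all 8 early pairs: the regulators Insig1 and Srebf2, the sterol transport protein gene Stard4, and the sterol enzymes Cyp51, Sqle and Idi1. Insig1 and Srebf2 alone of these had a called early term, and the lowest ratio of Sqle was 0.06 (log2). In single early pairs 50.8% to 58.5% of all genes were above 0. The share of all genes that were higher in all 8 pairs was not counted. Insig1, which encodes the endoplasmic reticulum protein that retains SCAP, was higher by 1.10 or more on the log2 scale in each, while Srebf1 and Scap were lower in 5 of the 8. By 4 h the fatty acid branch had fallen, with 7 of its 8 tested enzymes called lower in 4sU RNA, while Srebf2, the SREBP gene most tied to cholesterol synthesis, was called higher at 45 min, 2 h and 4 h. The 3 LPS times of the unstranded table share their untreated libraries. Values of that table are given in the order untreated, 45 min, 2 h and 4 h.

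**Figure D1:**
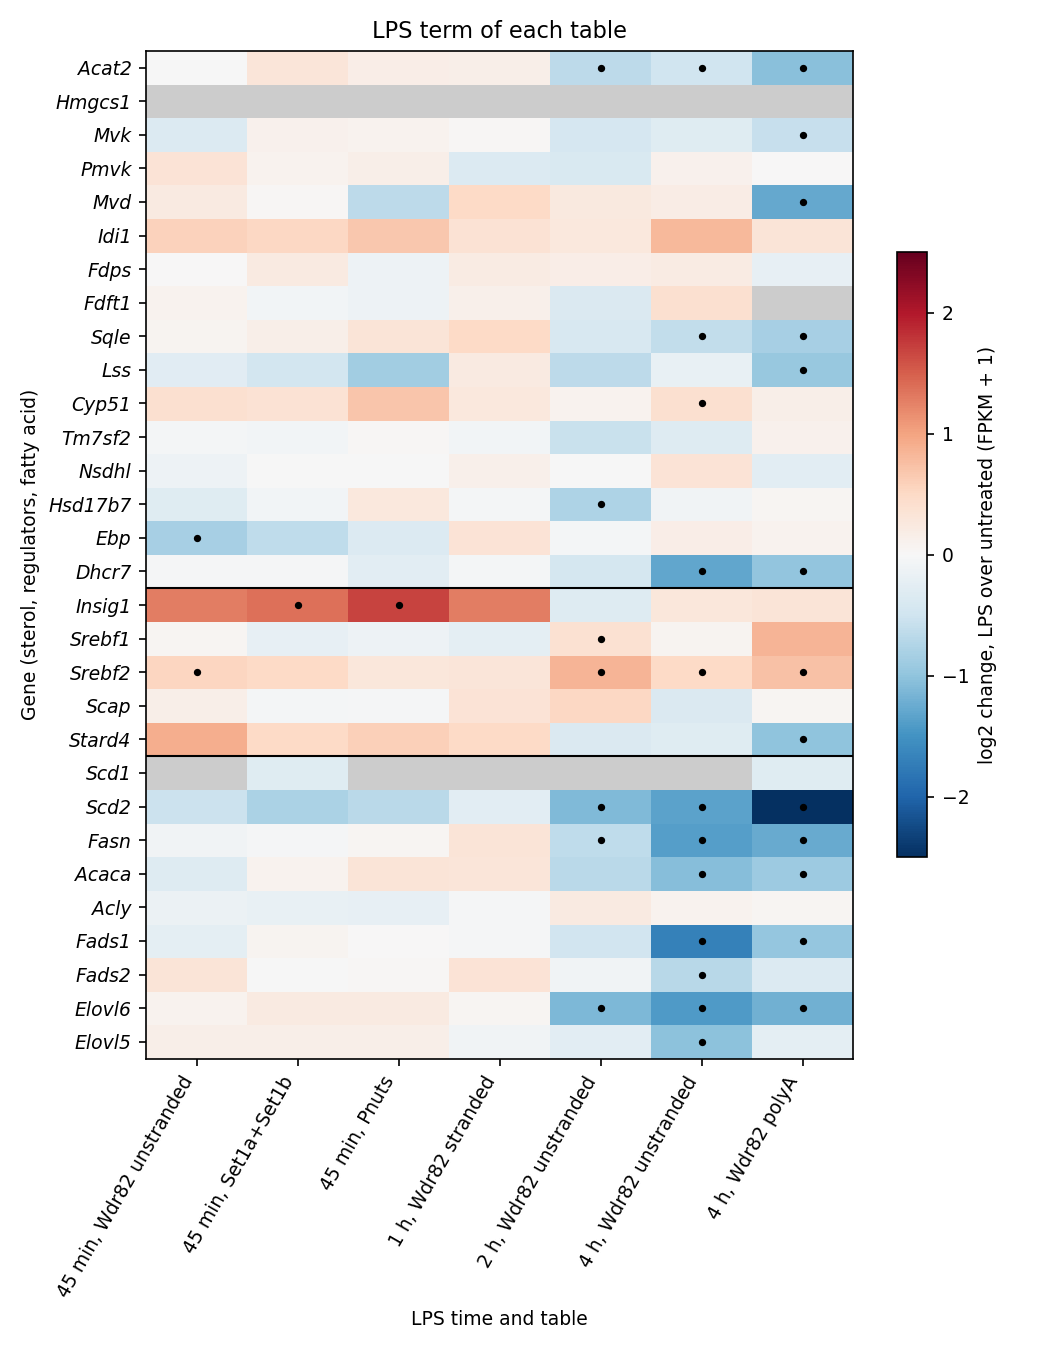
Fitted LPS changes (log2, LPS over untreated, FPKM + 1) of the members, rows ordered as sterol, regulator and fatty acid genes, columns by LPS time and table. Dots mark calls at an adjusted p under 0.05 and grey cells were not tested; Insig1 is at 1.28 to 1.69 in the 4 early columns and the fatty acid rows are below 0 at 4 h apart from Acly.

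Insig1 lies on chromosome 5, 28397951 to 28405201 in mm9. Insig1 in the unstranded table was at 33.6, 73.3, 25.0 and 26.3 FPKM with sh1137 and 20.3, 57.7, 17.3 and 39.0 FPKM with LMP. Insig1 in the stranded table was at 62.1 (sh1137) and 52.2 (LMP) FPKM after 1 h of LPS and 23.3 (sh1137) and 22.6 (LMP) FPKM untreated. The 45 min libraries were the highest of the unstranded table with either vector, and by 2 h the values were below those of untreated cells. Insig1 in the Set1a+Set1b table was at 102 (hairpins) and 90.4 (scrambled) FPKM after 45 min of LPS and 37.8 (hairpins) and 35.0 (scrambled) FPKM untreated. Insig1 in the Pnuts table was at 133 (labelled Pnuts) and 57.0 (scrambled) FPKM after 45 min of LPS and 36.8 (labelled Pnuts) and 18.7 (scrambled) FPKM untreated. The LPS and untreated libraries of these tables did not overlap, and the log2 ratios of the 8 early pairs ran from 1.10 to 1.83. The fitted log2 change was 1.38 ± 0.07 in the Set1a+Set1b table (SE, limma adjusted p = 0.0254) and 1.69 ± 0.12 in the Pnuts table (SE, limma adjusted p = 0.0325). It was 1.28 ± 0.32 at 45 min in the unstranded table (SE, limma adjusted p = 0.0831) and 1.28 ± 0.13 at 1 h in the stranded table (SE, limma adjusted p = 0.0566), which did not pass. Without the 4 h libraries the 45 min value of the unstranded table, 1.28, passed. PolyA Insig1 was at 31.0 (sh1137) and 47.6 (LMP) FPKM after 4 h of LPS and 29.1 (sh1137) and 32.1 (LMP) FPKM untreated, and its change at 4 h was not called.

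Stard4, on chromosome 18, was higher early with LPS as well, by less than Insig1 in each of the 8 pairs. Stard4 in the unstranded table was at 11.7, 22.2, 9.87 and 7.35 FPKM with sh1137 and 10.1, 20.5, 6.96 and 10.1 FPKM with LMP. Stard4 in the stranded table was at 21.2 (sh1137) and 18.3 (LMP) FPKM after 1 h of LPS and 13.1 (sh1137) and 14.1 (LMP) FPKM untreated. The 45 min libraries were again the highest of their course. Stard4 in the Set1a+Set1b table was at 29.7 (hairpins) and 26.3 (scrambled) FPKM after 45 min of LPS and 18.8 (hairpins) and 20.0 (scrambled) FPKM untreated. Stard4 in the Pnuts table was at 31.2 (labelled Pnuts) and 15.2 (scrambled) FPKM after 45 min of LPS and 16.1 (labelled Pnuts) and 12.2 (scrambled) FPKM untreated. The log2 ratios of the 8 early pairs ran from 0.30 to 0.96. None of the 4 early terms was called (0.91 ± 0.22 in the unstranded table, SE, limma adjusted p = 0.0776), although that of the unstranded table was, at 0.91, without the 4 h libraries. PolyA Stard4 was at 6.26 (sh1137) and 8.32 (LMP) FPKM after 4 h of LPS and 15.2 (sh1137) and 15.6 (LMP) FPKM untreated. There the 4 h libraries lay below both untreated ones, with a log2 change of -0.996 ± 0.15 (SE, limma adjusted p = 0.0199).

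Srebf2 (chromosome 15, 81977695 to 82035806 in mm9, a locus that also holds Mir33) rose moderately and stayed up. Srebf2 in the unstranded table was at 15.6, 23.0, 29.0 and 20.7 FPKM with sh1137 and 15.0, 22.4, 27.9 and 23.8 FPKM with LMP. PolyA Srebf2 was at 52.9 (sh1137) and 78.2 (LMP) FPKM after 4 h of LPS and 37.2 (sh1137) and 39.7 (LMP) FPKM untreated. The untreated libraries were the lowest of their vector in both tables. The fitted log2 changes were 0.54 ± 0.11 at 45 min, 0.85 ± 0.11 at 2 h and 0.51 ± 0.11 at 4 h (SE, limma adjusted p = 0.0496, 0.00669 and 0.0152), and 0.73 ± 0.17 at 4 h in polyA RNA (SE, limma adjusted p = 0.0448). The 45 min call was lost without the 2 h or the 4 h libraries, at the same log2 change of 0.54. Srebf2 in the stranded table was at 12.4 (sh1137) and 14.6 (LMP) FPKM after 1 h of LPS and 9.70 (sh1137) and 11.8 (LMP) FPKM untreated. Srebf2 in the Set1a+Set1b table was at 32.0 (hairpins) and 35.1 (scrambled) FPKM after 45 min of LPS and 21.7 (hairpins) and 25.5 (scrambled) FPKM untreated. Srebf2 in the Pnuts table was at 22.9 (labelled Pnuts) and 26.1 (scrambled) FPKM after 45 min of LPS and 18.5 (labelled Pnuts) and 21.5 (scrambled) FPKM untreated. It was higher with LPS in each of these 6 pairs, and no term was called there.

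Srebf1, which encodes the SREBP most tied to fatty acid synthesis, was called for LPS at 2 h alone. Srebf1 in the unstranded table was at 36.4, 35.4, 48.6 and 37.9 FPKM with sh1137 and 34.1, 37.8, 43.9 and 36.5 FPKM with LMP. PolyA Srebf1 was at 53.1 (sh1137) and 82.9 (LMP) FPKM after 4 h of LPS and 37.8 (sh1137) and 35.1 (LMP) FPKM untreated. The 2 h libraries were the highest with each vector in 4sU RNA, with a log2 change of 0.38 ± 0.10 (SE, limma adjusted p = 0.0419) that was not called without the 45 min or the 4 h libraries. In polyA RNA the change of 0.85 ± 0.23 did not pass (SE, limma adjusted p = 0.0582), with a ratio of 1.22 (log2) in the LMP pair. Scap, which encodes the SREBP escort, was not called for LPS in any table. Scap in the unstranded table was at 10.4, 14.9, 20.1 and 7.20 FPKM with sh1137 and 10.2, 8.76, 11.6 and 8.51 FPKM with LMP. PolyA Scap was at 16.4 (sh1137) and 12.1 (LMP) FPKM after 4 h of LPS and 13.5 (sh1137) and 13.9 (LMP) FPKM untreated. The sh1137 libraries at 45 min and 2 h were higher than the LMP libraries of those times. The Srebf1 locus also holds Rai1 and the Scap locus 5830462I19Rik, and unstranded reads of overlapping genes are not separated.

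At 45 min in the unstranded table, 1 of 28 members was called higher, Srebf2, against 5.52% of all genes tested, and 1 lower, against 2.29%. The lower gene was Ebp, the sterol isomerase, at 12.1, 6.23, 11.7 and 15.8 FPKM with sh1137 and 15.5, 8.41, 14.8 and 15.2 FPKM with LMP on chromosome X. Both 45 min libraries of Ebp were the lowest of their vector, and the 2 h libraries were near the untreated ones (log2 change at 45 min -0.84 ± 0.14, SE, limma adjusted p = 0.0363). The call was lost without the 2 h libraries, at the same log2 change of -0.84. In the Set1a+Set1b table, 1 of 29 members was called higher, against 2.75% of all genes, and 0 lower, against 0.861%, and 7 members had an unadjusted p under 0.05. In the Pnuts table, Insig1 alone of 28 members (1) was called higher, against 1.86%, and 0 lower, against 0.225%, with 6 members at an unadjusted p under 0.05. In the stranded table after 1 h, 0 of 28 were called higher, against 0.596%, and 0 lower, against 0.249%, with 4 members at an unadjusted p under 0.05. The medians over the members were 0.03, 0.04, 0.04 and 0.17 (log2) in the unstranded, Set1a+Set1b, Pnuts and stranded tables, beside 0.06, 0.07, 0.09 and 0.02 over all genes.

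**Figure D2:**
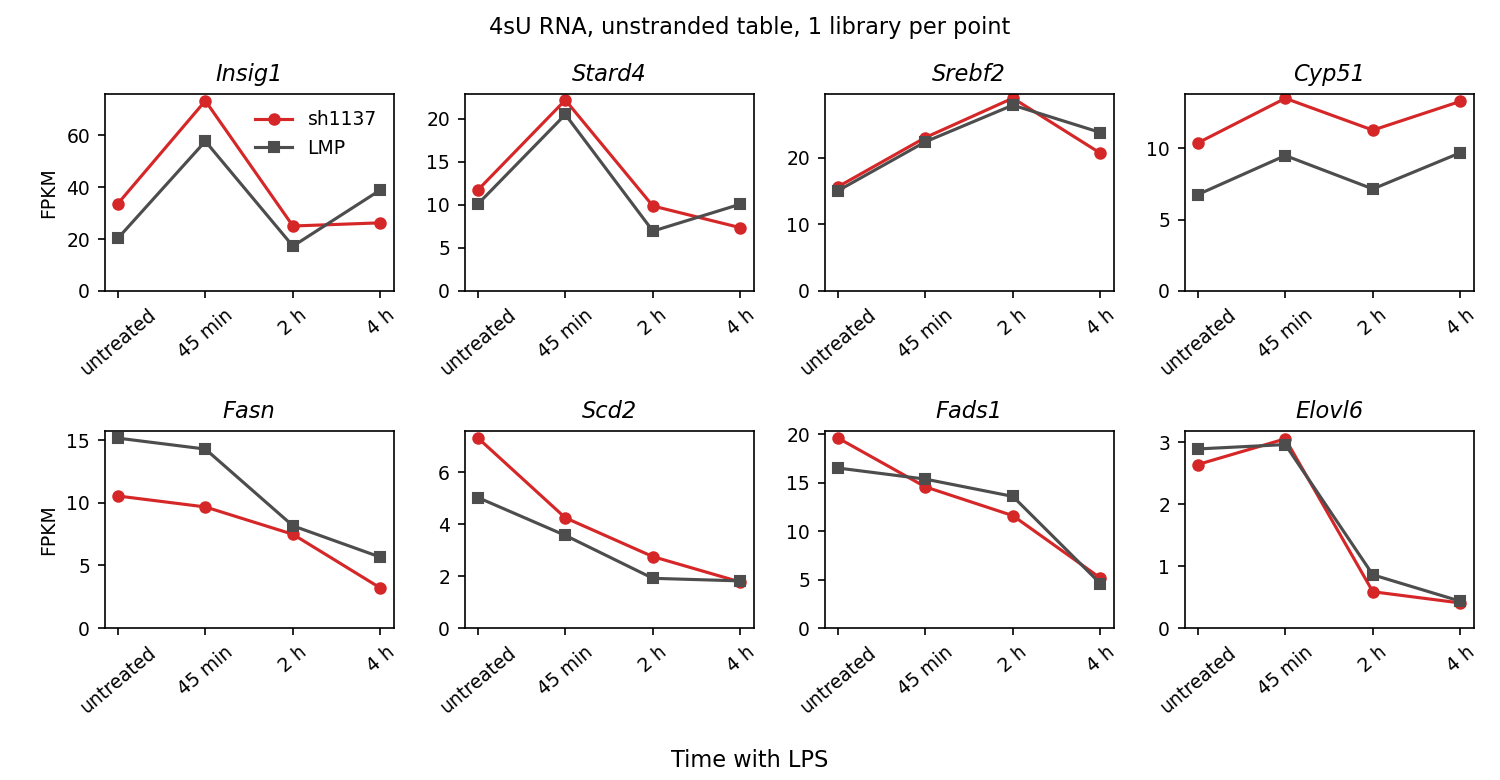
FPKM of 8 members in 4sU RNA of the unstranded table by time with LPS, with sh1137 and LMP as lines of 1 library per point and axes that start at 0. Insig1 and Stard4 are highest at 45 min, Srebf2 at 2 h, and Fasn, Scd2, Fads1 and Elovl6 are lowest at 4 h; Cyp51 is higher with sh1137 at every time.

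At 2 h, 5 of 28 members (17.9%) were called lower, against 9.47% of all genes, and 2 higher, against 18.5%. The lower ones were the elongase Elovl6, the desaturase Scd2, fatty acid synthase (Fasn), the sterol ketoreductase Hsd17b7 and Acat2, the thiolase of the first step, and the higher ones were Srebf1 and Srebf2. At 4 h, 10 of 28 (35.7%) were called lower, against 16.6% of all genes, and 2 (7.14%) higher, against 30.1%. The median member lay at -0.36 (log2) at 2 h and -0.25 at 4 h, while the median gene lay at 0.07 and 0.16. Relative to the median gene, each change at 4 h is therefore lower by 0.16. Centring the libraries on their medians gave 1 higher and 7 lower members at 2 h, and 0 higher and 1 lower at 45 min. In all genes the same centring took the higher share of the calls at 4 h to 54.9% from 64.6%.

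The fatty acid branch carried most of the 4 h fall. Its 8 tested enzymes had a median log2 change of -1.20 at 4 h, and 7 were called lower. Fasn, which builds palmitate (chromosome 11, 120667253 to 120685492 in mm9), was at 10.5, 9.66, 7.48 and 3.19 FPKM with sh1137 and 15.2, 14.3, 8.15 and 5.65 FPKM with LMP in the unstranded table. The 4 h value was the lowest with either vector (log2 change -1.37 ± 0.16, SE, limma adjusted p = 0.00245). Acaca, the acetyl-CoA carboxylase that makes malonyl-CoA, was at 11.1, 6.36, 5.24 and 3.77 FPKM with sh1137 and 10.5, 11.1, 7.68 and 5.65 FPKM with LMP. Its 4 h libraries were also the lowest (-1.06 ± 0.21, SE, limma adjusted p = 0.0123). Scd2, a stearoyl-CoA desaturase (chromosome 19, 44368165 to 44381354 in mm9), was at 7.33, 4.25, 2.75 and 1.77 FPKM with sh1137 and 5.03, 3.57, 1.92 and 1.82 FPKM with LMP. Scd2 was lower at each later time with each vector, and was called at 2 h (-1.10 ± 0.18, SE, limma adjusted p = 0.0133) and 4 h (-1.34 ± 0.18, SE, limma adjusted p = 0.0037). The 2 h call of Fasn (-0.63 ± 0.16, SE, limma adjusted p = 0.0428) was lost without the 45 min or the 4 h libraries, at the same log2 change of -0.63.

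The desaturases of polyunsaturated fatty acids and the elongases fell as well. Fads1 (chromosome 19, 10257377 to 10271360 in mm9) was at 19.6, 14.6, 11.6 and 5.15 FPKM with sh1137 and 16.5, 15.4, 13.6 and 4.58 FPKM with LMP. It was called lower at 4 h (-1.70 ± 0.14, SE, limma adjusted p = 0.000951), and the 4 h libraries stood well below the rest. Fads2, its neighbour on the chromosome, was at 1.99, 2.27, 1.63 and 0.781 FPKM with sh1137 and 2.16, 3.51, 2.21 and 1.05 FPKM with LMP. Its 4 h change of -0.69 ± 0.20 was called (SE, limma adjusted p = 0.0437), though not without the 45 min or the 2 h libraries. Elovl6, the elongase that takes palmitate to stearate (chromosome 3, 129235303 to 129341413 in mm9), was at 2.64, 3.06, 0.587 and 0.405 FPKM with sh1137 and 2.89, 2.97, 0.86 and 0.433 FPKM with LMP. The 2 h and 4 h libraries were all below 1 FPKM, so the ratio with a pseudocount of 1 understates the change (4 h log2 change -1.41 ± 0.22, SE, limma adjusted p = 0.00581). At 2 h the change was -1.13 ± 0.22 (SE, limma adjusted p = 0.0204), a call that was lost without the 45 min libraries. Elovl5, an elongase of polyunsaturated chains, was at 11.0, 13.3, 11.6 and 6.20 FPKM with sh1137 and 14.9, 15.6, 9.40 and 5.39 FPKM with LMP, lowest at 4 h with either vector (-1.03 ± 0.20, SE, limma adjusted p = 0.012). Acly, the remaining tested enzyme of the branch, lay between 26.1 and 69.8 FPKM over the 28 libraries and was not called for LPS in any table.

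The sterol branch was divided. Of its 15 tested enzymes, 3 (20%) were called lower at 4 h, a share near the 16.6% of all genes. A single enzyme (6.67%) was called higher, against 30.1%. The median log2 change of the branch was 0.12, beside 0.16 over all genes. Sqle, the squalene epoxidase, was at 12.5, 13.1, 8.28 and 6.97 FPKM with sh1137 and 12.1, 13.0, 9.87 and 8.51 FPKM with LMP, lower at 2 h and 4 h with either vector (4 h log2 change -0.61 ± 0.12, SE, limma adjusted p = 0.0136). Dhcr7, the reductase of the last step, was at 6.98, 6.74, 6.67 and 1.58 FPKM with sh1137 and 5.75, 5.66, 2.86 and 2.43 FPKM with LMP, and its 2 h libraries differed most between vectors. Its 4 h change of -1.30 ± 0.34 was called (SE, limma adjusted p = 0.0295), but not without the 45 min libraries. Acat2 was at 3.81, 3.53, 1.87 and 2.28 FPKM with sh1137 and 3.95, 4.16, 2.39 and 2.68 FPKM with LMP, with changes of -0.65 ± 0.15 at 2 h and -0.49 ± 0.15 at 4 h (SE, limma adjusted p = 0.0326 and 0.0468). The 2 h call of Acat2 was lost without the 45 min or the 4 h libraries and its 4 h call without the 45 min or the 2 h libraries, at the same log2 changes. Hsd17b7 was at 4.03, 3.02, 2.22 and 3.10 FPKM with sh1137 and 4.94, 3.92, 2.15 and 5.42 FPKM with LMP, low at 2 h and back at 4 h with LMP (2 h -0.78 ± 0.20, SE, limma adjusted p = 0.0451, lost without the 45 min libraries). Cyp51, the lanosterol demethylase (chromosome 5, 4081144 to 4104746 in mm9), was at 10.4, 13.5, 11.3 and 13.3 FPKM with sh1137 and 6.75, 9.49, 7.15 and 9.69 FPKM with LMP. It was higher than untreated at each LPS time and was called at 4 h (0.40 ± 0.10, SE, limma adjusted p = 0.0273), but not relative to the median gene, at 0.25 with centred libraries, and not without the 45 min libraries.

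Mvk, the mevalonate kinase, was at 3.69, 3.39, 3.42 and 2.41 FPKM with sh1137 and 5.67, 3.39, 2.94 and 4.99 FPKM with LMP and was not called in this table. Mvd, the decarboxylase of a later step, was at 4.42, 5.94, 4.96 and 5.17 FPKM with sh1137 and 3.32, 3.57, 4.52 and 3.95 FPKM with LMP and was not called here either. Lss, the lanosterol synthase, was at 8.29, 4.96, 3.97 and 5.55 FPKM with sh1137 and 6.93, 7.26, 5.00 and 7.65 FPKM with LMP. Each of the 6 LPS libraries was lower than the untreated library of its vector for Mvk and higher for Mvd, and Lss was mixed. The members with no call for LPS or a hairpin in any table were Pmvk (4.15 to 18.4 FPKM over all libraries), Idi1 (0.984 to 4.88), Fdps (2.57 to 17.0), Fdft1 (up to 9.87, and listed at 0 with a failed status in 1 polyA library), Tm7sf2 (1.43 to 8.21), Nsdhl (4.18 to 16.7), Scap, Scd1 and Acly, beside Hmgcs1 at 0.

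In polyA RNA at 4 h both branches held called falls. Of 28 members tested, 12 (42.9%) were called lower, against 12.3% of all genes, and 1 (3.57%) higher, against 25.1%. The median member lay at -0.28 (log2) and the median gene at 0.15. The 12 were 6 sterol enzymes, 5 fatty acid enzymes and Stard4. In single pairs the sterol enzymes had a median of -0.47 (log2) in sh1137 cells and 0.02 in LMP cells, where 8 of 15 were above 0, and the fatty acid enzymes of -0.84 in sh1137 and -0.72 in LMP cells. With centred libraries 12 were lower and 0 higher, and in all genes the higher and lower calls changed to 2391 and 2090 from 3014 and 1484. Scd2 had the largest fall on the log2(FPKM + 1) scale, at 9.71 (sh1137) and 13.3 (LMP) FPKM after 4 h of LPS and 60.8 (sh1137) and 77.9 (LMP) FPKM untreated. The LPS and untreated libraries stood far apart (log2 change -2.49 ± 0.12, SE, limma adjusted p = 0.00442). PolyA Fasn was at 6.95 (sh1137) and 9.98 (LMP) FPKM after 4 h of LPS and 22.5 (sh1137) and 20.4 (LMP) FPKM untreated (-1.26 ± 0.20, SE, limma adjusted p = 0.0218). PolyA Acaca was at 4.40 (sh1137) and 6.06 (LMP) FPKM after 4 h of LPS and 10.7 (sh1137) and 10.6 (LMP) FPKM untreated (-0.91 ± 0.17, SE, limma adjusted p = 0.0279). For both genes the LPS libraries were lower than either untreated one.

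PolyA Fads1 was at 21.5 (sh1137) and 20.0 (LMP) FPKM after 4 h of LPS and 39.2 (sh1137) and 44.1 (LMP) FPKM untreated (-0.97 ± 0.14, SE, limma adjusted p = 0.0179). PolyA Elovl6 was at 0.369 (sh1137) and 0.352 (LMP) FPKM after 4 h of LPS and 2.35 (sh1137) and 1.92 (LMP) FPKM untreated (-1.20 ± 0.19, SE, limma adjusted p = 0.0218). Both were called in 4sU and in polyA RNA, whereas Fads2 and Elovl5 were called in 4sU RNA only, and the difference between the tables was not tested. PolyA Fads2 was at 8.28 (sh1137) and 16.6 (LMP) FPKM after 4 h of LPS and 13.3 (sh1137) and 17.5 (LMP) FPKM untreated. PolyA Elovl5 was at 19.1 (sh1137) and 20.7 (LMP) FPKM after 4 h of LPS and 24.3 (sh1137) and 23.5 (LMP) FPKM untreated. For Fads2 the LMP library after LPS was nearly as high as the untreated LMP library. Scd1 was added to the genes given in every library after its values were seen. PolyA Scd1 was at 1.84 (sh1137) and 12.9 (LMP) FPKM after 4 h of LPS and 3.84 (sh1137) and 11.4 (LMP) FPKM untreated, and its LPS change was not called. Its level differed more between the vectors than between LPS and untreated cells.

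Among the sterol enzymes, polyA Mvd was at 6.95 (sh1137) and 7.23 (LMP) FPKM after 4 h of LPS and 16.3 (sh1137) and 21.1 (LMP) FPKM untreated (-1.28 ± 0.15, SE, limma adjusted p = 0.0128). PolyA Acat2 was at 4.93 (sh1137) and 6.73 (LMP) FPKM after 4 h of LPS and 14.3 (sh1137) and 11.8 (LMP) FPKM untreated (-1.05 ± 0.21, SE, limma adjusted p = 0.0334). PolyA Dhcr7 was at 8.22 (sh1137) and 9.31 (LMP) FPKM after 4 h of LPS and 17.7 (sh1137) and 19.0 (LMP) FPKM untreated (-0.99 ± 0.12, SE, limma adjusted p = 0.0143). Both LPS libraries were below both untreated ones for each of these. PolyA Lss was at 5.28 (sh1137) and 8.27 (LMP) FPKM after 4 h of LPS and 13.8 (sh1137) and 13.6 (LMP) FPKM untreated (-0.94 ± 0.20, SE, limma adjusted p = 0.0365). PolyA Sqle was at 12.2 (sh1137) and 14.9 (LMP) FPKM after 4 h of LPS and 27.3 (sh1137) and 22.4 (LMP) FPKM untreated (-0.83 ± 0.19, SE, limma adjusted p = 0.0427). PolyA Mvk was at 5.91 (sh1137) and 7.05 (LMP) FPKM after 4 h of LPS and 10.0 (sh1137) and 10.3 (LMP) FPKM untreated (-0.58 ± 0.14, SE, limma adjusted p = 0.0456). The groups did not overlap for any of the 3. PolyA Cyp51 was at 16.3 (sh1137) and 27.4 (LMP) FPKM after 4 h of LPS and 20.1 (sh1137) and 18.0 (LMP) FPKM untreated, with LPS and untreated libraries overlapping. PolyA Hsd17b7 was at 5.06 (sh1137) and 6.69 (LMP) FPKM after 4 h of LPS and 7.01 (sh1137) and 4.47 (LMP) FPKM untreated. PolyA Ebp was at 22.3 (sh1137) and 23.2 (LMP) FPKM after 4 h of LPS and 20.6 (sh1137) and 22.3 (LMP) FPKM untreated, and neither was called.

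The 4sU and polyA tables share no library. Of 27 members tested at 4 h in both, 8 were called lower in both, which is 80% of the 10 called in 4sU RNA and 66.7% of the 12 called in polyA RNA. They were Acaca, Acat2, Dhcr7, Elovl6, Fads1, Fasn, Scd2 and Sqle. Over all genes tested in both, 1005 were lower in both, or 48.2% of those called in 4sU RNA and 69.3% of those called in polyA RNA. No member was called in opposite directions. Genes of the cell cycle fell over the same interval. In 4sU RNA at 4 h 17 of 20 were called lower (median log2 change -1.11), against 16.6% of all genes. In polyA RNA 7 of 20 were called lower (median -0.29), against 12.3%. The part of these genes in the fall of the members was not tested.

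Both vectors showed the 4 h fall of the fatty acid branch in single pairs. The branch had a median log2 ratio of -1.36 in sh1137 cells and -1.19 in LMP cells in 4sU RNA, and of -0.84 (sh1137) and -0.72 (LMP) in polyA RNA. The sterol branch had -0.01 in sh1137 cells and 0.13 in LMP cells in 4sU RNA, and -0.47 (sh1137) and 0.02 (LMP) in polyA RNA. The differences between vectors were not tested, since with 1 library per condition the interaction is the error of the fit.

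Pathway genes outside the list moved less uniformly at 4 h. Of 23 tested from a further list, 9 were called higher in 4sU RNA, against 30.1% of all genes, and 3 lower, against 16.6%. The median log2 change of the list was 0.28, beside 0.16 over all genes. Acsl1, an acyl-CoA synthetase, had a log2 change of 2.43 ± 0.23 (SE, limma adjusted p = 0.00129), while Acsl3, another of that family, had -1.39 ± 0.25 (SE, limma adjusted p = 0.0101). In polyA RNA the list had 3 higher, against 25.1% of all genes, and 4 lower, against 12.3%. Of 12 genes of sterol sensing and efflux, 6 were higher and 1 lower at 4 h in 4sU RNA, beside the same shares of all genes. Among the higher was Ch25h, which makes an oxysterol that blocks SREBP processing, at 3.54 ± 0.37 (SE, limma adjusted p = 0.00169). In polyA RNA 4 were higher and 0 lower, beside the polyA shares above, with Ch25h at 6.39 ± 0.71 (SE, limma adjusted p = 0.0123).

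The second question was what the hairpins did to these genes. Across the 6 tables, the hairpin term was called for a single member, Cyp51, which was higher with sh1137 in the unstranded table. There, 1 of 28 members was called, against 13.1% of all genes in either direction. Cyp51 was higher with sh1137 at all 4 times, as its values above show, with a log2 change of 0.51 ± 0.07 (SE, limma adjusted p = 0.021). The call was lost when any of the 4 times was left out, where the change was 0.48 to 0.54, and without the time term, where it was 0.51. Cyp51 in the stranded table was at 13.6 (sh1137) and 13.3 (LMP) FPKM after 1 h of LPS and 11.3 (sh1137) and 10.8 (LMP) FPKM untreated. Cyp51 in the Set1a+Set1b table was at 17.8 (hairpins) and 17.7 (scrambled) FPKM after 45 min of LPS and 12.7 (hairpins) and 14.5 (scrambled) FPKM untreated. Cyp51 in the Pnuts table was at 22.2 (labelled Pnuts) and 8.95 (scrambled) FPKM after 45 min of LPS and 10.9 (labelled Pnuts) and 6.38 (scrambled) FPKM untreated. The hairpin library was clearly higher in both Pnuts pairs and near its control in the stranded and Set1a+Set1b pairs. The ratio was above 0 in 12 of 14 pairs. The exceptions were untreated Set1a+Set1b cells and polyA RNA after 4 h of LPS. In that polyA pair Cyp51 was lower with sh1137, at a log2 ratio of -0.71.

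**Figure D3:**
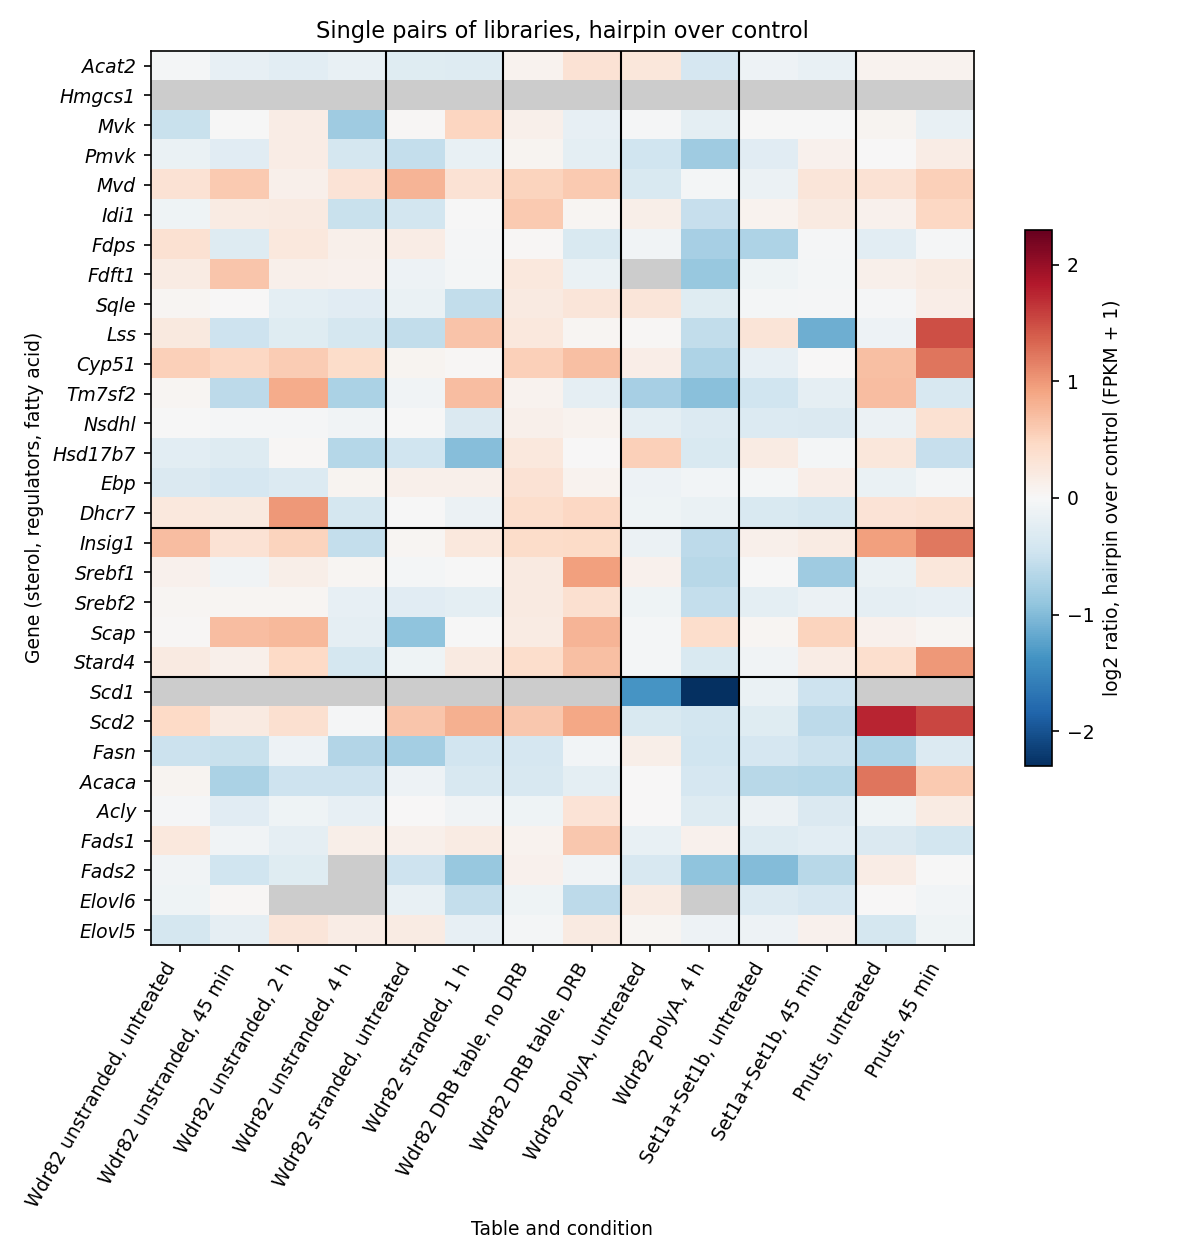
Log2 ratios (hairpin over control, FPKM + 1) of the members in the 14 single pairs of libraries, rows ordered as sterol, regulator and fatty acid genes and grey where the pair's mean was under 1 FPKM. Scd2 reaches 1.76 in untreated Pnuts cells and Scd1 -2.29 in polyA RNA after 4 h of LPS; Fasn is below 0 in 13 of 14 pairs.

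In the other 5 tables the hairpin term was called for 0 members. The stranded table gave a call to 0 of 28, against 2.36% of all genes, with 4 members at an unadjusted p under 0.05. The DRB table gave 0 calls among 28 members, against 0.0928%, with 5 at an unadjusted p under 0.05. The polyA table gave 0 calls among 28 members, against 0% of all genes, with 5 at an unadjusted p under 0.05 and 2276 such genes in all. The Set1a+Set1b table gave 0 calls among 29 members, against 0.062%, and the Pnuts table gave 0 among 28, against 0.0622%, with 7 members each at an unadjusted p under 0.05. Medians over the members were -0.05 (unstranded), -0.06 (stranded), 0.17 (DRB table), -0.20 (polyA), -0.18 (Set1a+Set1b) and 0.08 (Pnuts) on the log2 scale, beside 0.00, 0.03, -0.03, -0.08, 0.01 and 0.05 over all genes.

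Scd2 had the widest hairpin ratio of the 4sU pairs, in the libraries labelled Pnuts. Scd2 in the Pnuts table was at 14.7 (labelled Pnuts) and 4.40 (scrambled) FPKM after 45 min of LPS and 26.1 (labelled Pnuts) and 7.02 (scrambled) FPKM untreated. Both hairpin libraries were well above both controls (log2 change 1.65 ± 0.13, SE, limma adjusted p = 0.0882, not called). Scd2 in the Set1a+Set1b table was at 16.6 (hairpins) and 25.6 (scrambled) FPKM after 45 min of LPS and 32.9 (hairpins) and 40.2 (scrambled) FPKM untreated. Scd2 in the stranded Wdr82 table was at 8.98 (sh1137) and 4.63 (LMP) FPKM after 1 h of LPS and 10.2 (sh1137) and 6.16 (LMP) FPKM untreated. The hairpin libraries were lower than their controls in the Set1a+Set1b table and higher in the stranded Wdr82 table, and no term was called. Scd1 in the Pnuts table was at 1.11 (labelled Pnuts) and 0.21 (scrambled) FPKM after 45 min of LPS and 1.41 (labelled Pnuts) and 0.448 (scrambled) FPKM untreated. Scd1 in the Set1a+Set1b table was at 0.918 (hairpins) and 1.66 (scrambled) FPKM after 45 min of LPS and 1.66 (hairpins) and 1.95 (scrambled) FPKM untreated. Scd1 was at 0.10 (sh1137) and 0.102 (LMP) FPKM after 1 h of LPS and 0.15 (sh1137) and 0.167 (LMP) FPKM untreated in the stranded Wdr82 table, and at 0.184, 0.199, 0.156 and 0.0558 FPKM with sh1137 and 0.146, 0.0793, 0.08 and 0.0895 FPKM with LMP in the unstranded table. These levels reached at most 1.95 FPKM, while polyA Scd1, given above, was lower in both sh1137 libraries than in both LMP libraries (log2 change -1.83 ± 0.28, SE, limma adjusted p = 0.148, not called). In the same polyA libraries the median log2 change with sh1137 was -0.68 over macrophage markers and 0.69 over cell cycle genes, and B cell markers summed to 28.3 (sh1137) and 75.2 (LMP) FPKM after LPS and 39.0 (sh1137) and 115 (LMP) FPKM untreated. Their part in these ratios was not tested.

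**Figure D4:**
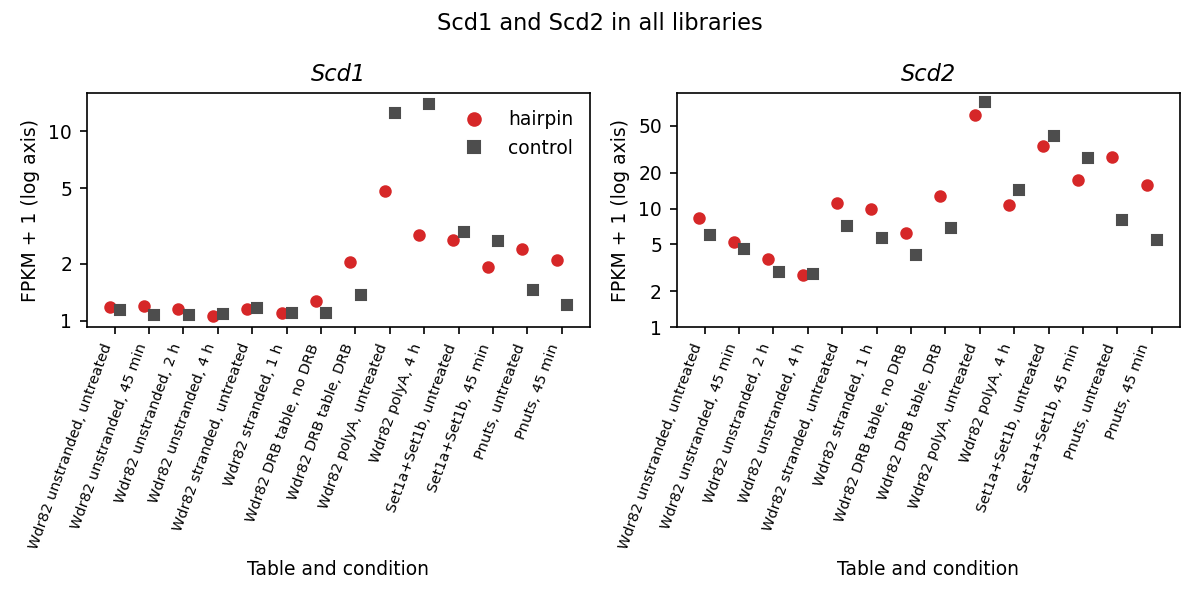
FPKM + 1 on a log axis of Scd1 and Scd2 in the 28 libraries by table and condition, with hairpin libraries as circles left of their controls as squares. PolyA Scd1 is at 1.84 and 3.84 FPKM with sh1137 and at 12.9 and 11.4 FPKM with LMP (4 h of LPS and untreated), and Scd2 in the Pnuts table is higher in both hairpin libraries.

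By the 2-fold rule for single pairs, 2 of 28 members were higher in untreated Pnuts cells, Scd2 and Acaca, against 3.52% of all genes, and 4 of 28 after 45 min of LPS, Lss, Cyp51, Insig1 and Scd2, against 6.21%. In polyA RNA, Scd1 was the single member at least 2-fold lower with sh1137 after 4 h of LPS, against 3.02% of all genes, and in untreated cells, against 2.72%. These ratios have no test. Acaca in the Pnuts table was at 17.0 (labelled Pnuts) and 10.8 (scrambled) FPKM after 45 min of LPS and 16.8 (labelled Pnuts) and 6.61 (scrambled) FPKM untreated. Acaca in the Set1a+Set1b table was at 12.1 (hairpins) and 19.5 (scrambled) FPKM after 45 min of LPS and 11.3 (hairpins) and 18.1 (scrambled) FPKM untreated. Acaca in the stranded Wdr82 table was at 9.66 (sh1137) and 12.8 (LMP) FPKM after 1 h of LPS and 8.47 (sh1137) and 9.27 (LMP) FPKM untreated. The hairpin libraries were higher than the controls in the Pnuts table and lower in the other 2, with log2 changes of 0.92 ± 0.20 and -0.64 ± 0.08 (SE, limma adjusted p = 0.123 and 0.151) in the Pnuts and Set1a+Set1b tables, neither called.

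Fasn was lower in most hairpin libraries than in their controls, and its hairpin term was called in no table. Fasn in the stranded Wdr82 table was at 6.59 (sh1137) and 9.28 (LMP) FPKM after 1 h of LPS and 4.37 (sh1137) and 8.26 (LMP) FPKM untreated. Fasn in the Set1a+Set1b table was at 17.2 (hairpins) and 24.6 (scrambled) FPKM after 45 min of LPS and 18.1 (hairpins) and 24.1 (scrambled) FPKM untreated. Fasn in the Pnuts table was at 15.2 (labelled Pnuts) and 19.1 (scrambled) FPKM after 45 min of LPS and 12.6 (labelled Pnuts) and 21.1 (scrambled) FPKM untreated. The hairpin library was the lower of each of these pairs. Over the 14 pairs the ratio was below 0 in 13, the exception being untreated polyA cells. The share of all genes with 13 of 14 pairs on 1 side was not counted. The log2 change was -0.45 ± 0.11 in the unstranded table (SE, limma adjusted p = 0.066) and -0.44 ± 0.08 in the Set1a+Set1b table (SE, limma adjusted p = 0.161), and neither was called. Fads2 in the stranded Wdr82 table was at 3.02 (sh1137) and 6.39 (LMP) FPKM after 1 h of LPS and 2.66 (sh1137) and 4.06 (LMP) FPKM untreated. Fads2 in the Set1a+Set1b table was at 4.73 (hairpins) and 7.93 (scrambled) FPKM after 45 min of LPS and 4.13 (hairpins) and 9.20 (scrambled) FPKM untreated. Fads2 in the Pnuts table was at 4.56 (labelled Pnuts) and 4.56 (scrambled) FPKM after 45 min of LPS and 4.75 (labelled Pnuts) and 4.12 (scrambled) FPKM untreated. It was lower in the Wdr82 and Set1a+Set1b hairpin libraries shown and not in the Pnuts ones, again with no call.

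In the Set1a+Set1b table most members were lower with the hairpins, and none was called. In untreated cells 24 of 29 members were lower with the hairpins, 9 of 9 of the fatty acid branch among them, with a branch median of -0.30 on the log2 scale, and 51.9% of all genes were above 0. After 45 min of LPS 20 of 29 were lower, and 49.0% of all genes were below 0. In the same table the fitted change with the hairpins was below 0 for 20 of 20 cell cycle genes, with a median of -0.35 (log2) and no call. The median over the 9 macrophage markers was -0.10 (log2). Their sums were 8909 (hairpins) and 5132 (scrambled) FPKM after LPS and 5747 (hairpins) and 3385 (scrambled) FPKM untreated. Lyz2 alone was at 6177 (hairpins) and 2280 (scrambled) FPKM after LPS and 4569 (hairpins) and 1927 (scrambled) FPKM untreated. The part of both lists in the members' ratios was not tested. Fads1 in the Set1a+Set1b table was at 19.1 (hairpins) and 22.8 (scrambled) FPKM after 45 min of LPS and 17.8 (hairpins) and 22.1 (scrambled) FPKM untreated. Elovl6 in the Set1a+Set1b table was at 4.53 (hairpins) and 6.24 (scrambled) FPKM after 45 min of LPS and 3.86 (hairpins) and 5.07 (scrambled) FPKM untreated. Elovl5 in the Set1a+Set1b table was at 24.3 (hairpins) and 22.6 (scrambled) FPKM after 45 min of LPS and 20.1 (hairpins) and 21.9 (scrambled) FPKM untreated. Fads1 and Elovl6 were lower with the hairpins in both pairs and Elovl5 in 1 of 2. Dhcr7 in the Set1a+Set1b table was at 7.91 (hairpins) and 10.8 (scrambled) FPKM after 45 min of LPS and 8.21 (hairpins) and 10.8 (scrambled) FPKM untreated. Acat2 in the Set1a+Set1b table was at 8.26 (hairpins) and 9.42 (scrambled) FPKM after 45 min of LPS and 6.66 (hairpins) and 7.34 (scrambled) FPKM untreated. Sqle in the Set1a+Set1b table was at 19.1 (hairpins) and 19.5 (scrambled) FPKM after 45 min of LPS and 17.1 (hairpins) and 17.6 (scrambled) FPKM untreated. The difference was plain for Dhcr7, small for Acat2 and close to nil for Sqle.

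The remaining values of that table showed no common direction. Mvk in the Set1a+Set1b table was at 6.41 (hairpins) and 6.49 (scrambled) FPKM after 45 min of LPS and 5.94 (hairpins) and 5.95 (scrambled) FPKM untreated. Mvd in the Set1a+Set1b table was at 6.97 (hairpins) and 5.54 (scrambled) FPKM after 45 min of LPS and 5.74 (hairpins) and 6.37 (scrambled) FPKM untreated. Lss in the Set1a+Set1b table was at 7.37 (hairpins) and 17.3 (scrambled) FPKM after 45 min of LPS and 17.8 (hairpins) and 14.3 (scrambled) FPKM untreated. Lss was the widest of these, with its hairpin library lower after LPS and higher before it. Hsd17b7 in the Set1a+Set1b table was at 8.03 (hairpins) and 8.34 (scrambled) FPKM after 45 min of LPS and 9.24 (hairpins) and 7.98 (scrambled) FPKM untreated. Ebp in the Set1a+Set1b table was at 14.0 (hairpins) and 12.5 (scrambled) FPKM after 45 min of LPS and 20.7 (hairpins) and 21.5 (scrambled) FPKM untreated. Ebp was lower after LPS with either vector, as in the unstranded Wdr82 table, without a call. Srebf1 in the Set1a+Set1b table was at 31.4 (hairpins) and 56.5 (scrambled) FPKM after 45 min of LPS and 48.7 (hairpins) and 49.0 (scrambled) FPKM untreated. Scap in the Set1a+Set1b table was at 13.2 (hairpins) and 8.93 (scrambled) FPKM after 45 min of LPS and 11.4 (hairpins) and 11.1 (scrambled) FPKM untreated. After LPS the hairpin library was lower for Srebf1 and higher for Scap.

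In the Pnuts table, Insig1, Stard4 and Cyp51 were higher with the hairpin in both pairs, as their values above show, with a log2 change of 1.07 ± 0.12 for Insig1 (SE, limma adjusted p = 0.0882, not called). Lss in the Pnuts table was at 14.8 (labelled Pnuts) and 4.67 (scrambled) FPKM after 45 min of LPS and 15.6 (labelled Pnuts) and 17.1 (scrambled) FPKM untreated. Dhcr7 in the Pnuts table was at 8.70 (labelled Pnuts) and 6.58 (scrambled) FPKM after 45 min of LPS and 10.5 (labelled Pnuts) and 8.27 (scrambled) FPKM untreated. Mvd in the Pnuts table was at 3.96 (labelled Pnuts) and 2.38 (scrambled) FPKM after 45 min of LPS and 6.28 (labelled Pnuts) and 4.78 (scrambled) FPKM untreated. For Lss a single scrambled library after LPS was low, and the other 3 were alike. Fads1 in the Pnuts table was at 15.0 (labelled Pnuts) and 20.5 (scrambled) FPKM after 45 min of LPS and 15.3 (labelled Pnuts) and 19.6 (scrambled) FPKM untreated. Elovl6 in the Pnuts table was at 4.04 (labelled Pnuts) and 4.24 (scrambled) FPKM after 45 min of LPS and 3.42 (labelled Pnuts) and 3.38 (scrambled) FPKM untreated. Elovl5 in the Pnuts table was at 22.7 (labelled Pnuts) and 24.4 (scrambled) FPKM after 45 min of LPS and 18.3 (labelled Pnuts) and 24.4 (scrambled) FPKM untreated. Fads1 and Elovl5 were lower with the hairpin in both pairs, and Elovl6 was near its control. Acat2 in the Pnuts table was at 5.14 (labelled Pnuts) and 4.79 (scrambled) FPKM after 45 min of LPS and 4.48 (labelled Pnuts) and 4.20 (scrambled) FPKM untreated. Mvk in the Pnuts table was at 5.63 (labelled Pnuts) and 6.47 (scrambled) FPKM after 45 min of LPS and 5.79 (labelled Pnuts) and 5.47 (scrambled) FPKM untreated. Sqle in the Pnuts table was at 21.2 (labelled Pnuts) and 19.0 (scrambled) FPKM after 45 min of LPS and 15.7 (labelled Pnuts) and 16.0 (scrambled) FPKM untreated. These 3 differed little between hairpin and control. Hsd17b7 in the Pnuts table was at 6.55 (labelled Pnuts) and 9.90 (scrambled) FPKM after 45 min of LPS and 7.29 (labelled Pnuts) and 5.91 (scrambled) FPKM untreated. Ebp in the Pnuts table was at 14.9 (labelled Pnuts) and 15.5 (scrambled) FPKM after 45 min of LPS and 18.4 (labelled Pnuts) and 20.6 (scrambled) FPKM untreated. The order of hairpin and control for Hsd17b7 turned round with LPS. Srebf1 in the Pnuts table was at 49.5 (labelled Pnuts) and 41.2 (scrambled) FPKM after 45 min of LPS and 46.8 (labelled Pnuts) and 52.0 (scrambled) FPKM untreated. Scap in the Pnuts table was at 11.8 (labelled Pnuts) and 11.5 (scrambled) FPKM after 45 min of LPS and 12.4 (labelled Pnuts) and 11.5 (scrambled) FPKM untreated. Srebf1 was higher than its control after LPS and lower untreated, and Scap was near its control. In the same table the cell cycle genes had a median log2 change of -0.97 with the hairpin. The median over the 9 macrophage markers was 0.003. Their sums were 9727 (labelled Pnuts) and 5093 (scrambled) FPKM after LPS and 7166 (labelled Pnuts) and 3382 (scrambled) FPKM untreated. Lyz2 alone was at 7200 (labelled Pnuts) and 2652 (scrambled) FPKM after LPS and 6042 (labelled Pnuts) and 2017 (scrambled) FPKM untreated. The part of both lists in the members' ratios was not tested.

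In the stranded Wdr82 table the sterol genes were close to their controls with some exceptions. Mvd in the stranded table was at 6.35 (sh1137) and 4.86 (LMP) FPKM after 1 h of LPS and 5.04 (sh1137) and 2.53 (LMP) FPKM untreated. Hsd17b7 in the stranded table was at 4.50 (sh1137) and 9.86 (LMP) FPKM after 1 h of LPS and 5.84 (sh1137) and 8.44 (LMP) FPKM untreated. Lss in the stranded table was at 14.3 (sh1137) and 8.75 (LMP) FPKM after 1 h of LPS and 7.56 (sh1137) and 11.7 (LMP) FPKM untreated. The hairpin libraries were higher for Mvd and lower for Hsd17b7 in both pairs, and the order for Lss differed between the pairs. Acat2 in the stranded table was at 1.31 (sh1137) and 1.85 (LMP) FPKM after 1 h of LPS and 1.10 (sh1137) and 1.56 (LMP) FPKM untreated. Mvk in the stranded table was at 3.94 (sh1137) and 2.53 (LMP) FPKM after 1 h of LPS and 3.15 (sh1137) and 3.06 (LMP) FPKM untreated. Sqle in the stranded table was at 17.8 (sh1137) and 26.9 (LMP) FPKM after 1 h of LPS and 14.3 (sh1137) and 16.0 (LMP) FPKM untreated. Sqle was lower with sh1137 after LPS and near LMP before it. Dhcr7 in the stranded table was at 4.12 (sh1137) and 4.64 (LMP) FPKM after 1 h of LPS and 4.54 (sh1137) and 4.58 (LMP) FPKM untreated. Ebp in the stranded table was at 35.4 (sh1137) and 32.7 (LMP) FPKM after 1 h of LPS and 27.8 (sh1137) and 25.4 (LMP) FPKM untreated. Both were within a few FPKM of LMP. Ebp was higher with LPS in these libraries, the opposite of the 45 min tables, and the difference was not tested. Fads1 in the stranded table was at 15.8 (sh1137) and 13.8 (LMP) FPKM after 1 h of LPS and 15.7 (sh1137) and 14.5 (LMP) FPKM untreated. Elovl6 in the stranded table was at 3.37 (sh1137) and 5.41 (LMP) FPKM after 1 h of LPS and 3.80 (sh1137) and 4.43 (LMP) FPKM untreated. Elovl5 in the stranded table was at 14.3 (sh1137) and 16.5 (LMP) FPKM after 1 h of LPS and 17.6 (sh1137) and 15.3 (LMP) FPKM untreated. Elovl6 was lower with sh1137 in both pairs. Srebf1 in the stranded table was at 25.5 (sh1137) and 25.6 (LMP) FPKM after 1 h of LPS and 29.8 (sh1137) and 30.7 (LMP) FPKM untreated. Scap in the stranded table was at 7.81 (sh1137) and 7.91 (LMP) FPKM after 1 h of LPS and 4.08 (sh1137) and 8.61 (LMP) FPKM untreated. Scap in untreated sh1137 cells was the lowest of its 4 libraries and of all 28.

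PolyA RNA after 4 h of LPS gave the widest lean of the Wdr82 pairs, with 26 of 28 members lower in the sh1137 library, at a branch median of -0.38 (sterol) and -0.40 (fatty acid) on the log2 scale, while 38.0% of all genes were above 0 and the median gene lay at -0.11. In untreated polyA cells 16 of 28 were lower, a share near that of all genes, of which 56.6% were below 0. In the DRB table without DRB 23 of 28 were higher with sh1137, all 15 tested sterol enzymes among them, and 45.6% of all genes were above 0. With DRB 19 of 28 were higher, 10 of 15 sterol enzymes among them, and 48.6% of all genes were above 0. In the unstranded table at the same 45 min of LPS 12 of 28 were higher with sh1137. They included 6 of 15 sterol enzymes, and 51.9% of all genes were above 0. Over the 14 pairs no member tested in all of them had the same sign throughout. Genes of sterol sensing and efflux were called in the same Wdr82 tables. Of 12 such genes, 5 were higher with sh1137 and 1 lower in the unstranded table, against 6.07% and 6.99% of all genes. In the stranded table, they were 3 higher and 1 lower, against 1.65% and 0.709%. The cholesterol exporter Abcg1 had log2 changes of 1.37 ± 0.12 and 1.97 ± 0.18 there (SE, limma adjusted p = 0.0122 and 0.0411). In the DRB and polyA tables its changes were 1.20 and 0.13, not called. The further pathway list had 0 of 23 called in the unstranded table, against 13.1% of all genes. In the stranded one 1 of 22 was called, against 2.36%, which was Lpin1 at 2.24 ± 0.27 (SE, limma adjusted p = 0.0497).

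The third question was how DRB, which blocks release of RNA polymerase II into elongation, moved the new RNA of these genes in cells given LPS for 45 min. Insig1 and Stard4 were called lower with DRB, and 12 members were called higher, most of them enzymes. Of the other members that were higher in all 8 early LPS pairs, Srebf2 was called higher with DRB (log2 change 0.56), and Cyp51, Sqle and Idi1 were not called (-0.27, -0.41 and -0.47). That is 2 of 28 lower (7.14%), against 18.8% of all genes, and 12 higher (42.9%), against 25.9%. The median member lay at 0.55 (log2) and the median gene at 0.17. FPKM is relative to the library, so a higher value with DRB is a larger share of the labelled RNA and does not show more RNA.

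Insig1 was at 15.9 (sh1137) and 11.5 (scrambled) FPKM with DRB and 59.1 (sh1137) and 43.9 (scrambled) FPKM without DRB. Stard4 was at 9.48 (sh1137) and 5.50 (scrambled) FPKM with DRB and 18.2 (sh1137) and 13.4 (scrambled) FPKM without DRB. For each the DRB libraries were below the others with either vector, and the log2 changes were -1.84 ± 0.14 and -1.01 ± 0.18 (SE, limma adjusted p = 0.00528 and 0.0152). Elovl6 had the largest rise, at 6.43 (sh1137) and 10.3 (scrambled) FPKM with DRB and 1.82 (sh1137) and 2.03 (scrambled) FPKM without DRB, with both DRB libraries well above both others (1.65 ± 0.24, SE, limma adjusted p = 0.0114). Scd2 was at 11.7 (sh1137) and 5.84 (scrambled) FPKM with DRB and 5.22 (sh1137) and 3.05 (scrambled) FPKM without DRB (0.89 ± 0.20, SE, limma adjusted p = 0.0271). Acaca was at 9.90 (sh1137) and 11.7 (scrambled) FPKM with DRB and 5.38 (sh1137) and 7.28 (scrambled) FPKM without DRB (0.70 ± 0.18, SE, limma adjusted p = 0.0356). Fads2 was at 10.3 (sh1137) and 11.0 (scrambled) FPKM with DRB and 6.87 (sh1137) and 6.36 (scrambled) FPKM without DRB (0.61 ± 0.18, SE, limma adjusted p = 0.0491). All 3 were higher with DRB in both vectors. With DRB, Fads1 was at 36.7 (sh1137) and 23.5 (scrambled) FPKM with DRB and 18.7 (sh1137) and 17.7 (scrambled) FPKM without DRB, Fasn was at 20.8 (sh1137) and 21.6 (scrambled) FPKM with DRB and 18.0 (sh1137) and 23.8 (scrambled) FPKM without DRB, and Elovl5 was at 22.1 (sh1137) and 19.0 (scrambled) FPKM with DRB and 15.9 (sh1137) and 16.3 (scrambled) FPKM without DRB. Fads1 and Elovl5 were higher with DRB without a call, and Fasn was the fatty acid enzyme closest to no difference.

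**Figure D5:**
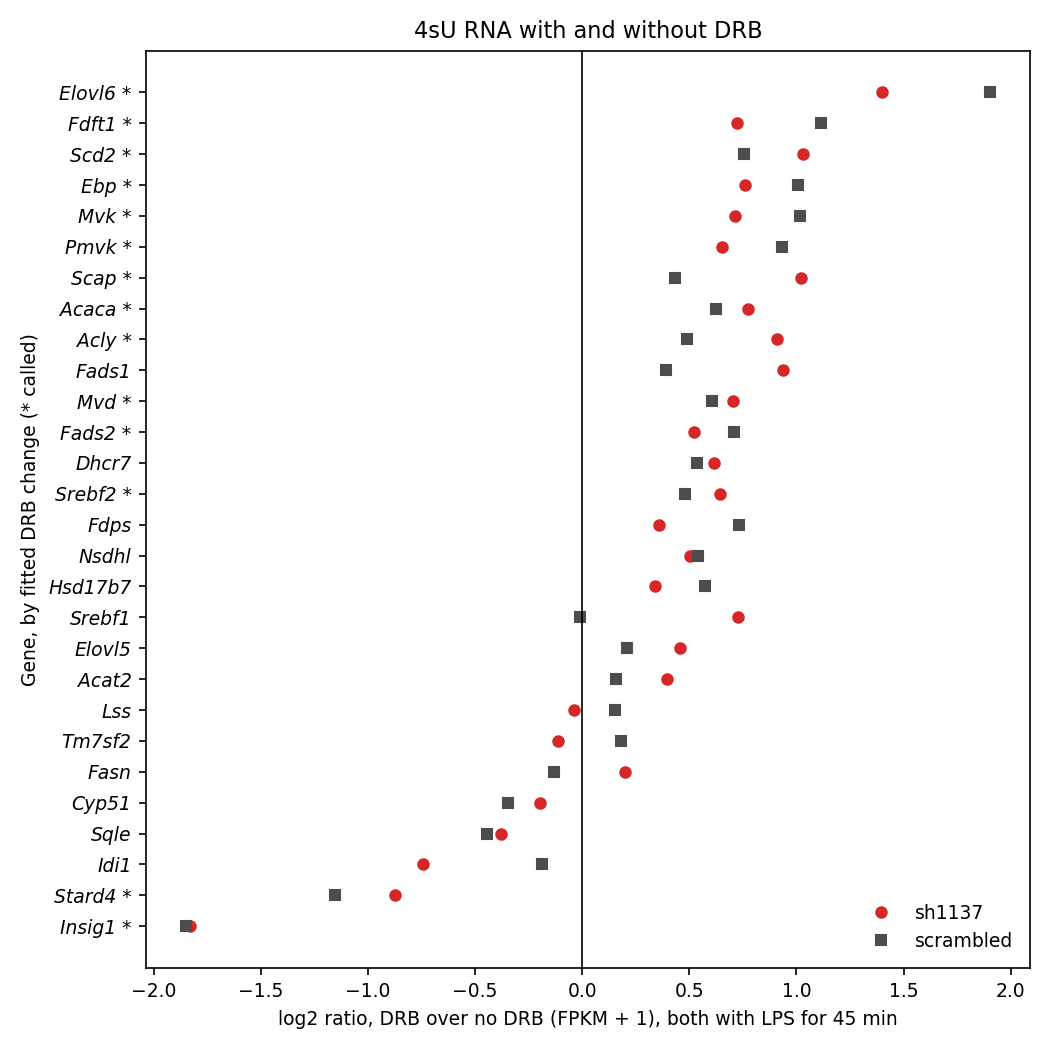
Log2 ratios (DRB over no DRB, FPKM + 1) of the 28 tested members in cells given LPS for 45 min, circles for sh1137 and squares for the scrambled control, ordered by the fitted change with an asterisk at each call. Insig1 (-1.84) and Stard4 (-1.01) are the lowest and Elovl6 (1.65) the highest; Srebf1 has the widest gap between the vectors, with sh1137 higher.

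Among the sterol enzymes, Ebp was at 25.9 (sh1137) and 24.5 (scrambled) FPKM with DRB and 14.9 (sh1137) and 11.7 (scrambled) FPKM without DRB (0.89 ± 0.16, SE, limma adjusted p = 0.0168). Mvk was at 8.25 (sh1137) and 9.54 (scrambled) FPKM with DRB and 4.64 (sh1137) and 4.21 (scrambled) FPKM without DRB (0.86 ± 0.20, SE, limma adjusted p = 0.0285). Mvd was at 10.3 (sh1137) and 6.40 (scrambled) FPKM with DRB and 5.91 (sh1137) and 3.87 (scrambled) FPKM without DRB (0.65 ± 0.19, SE, limma adjusted p = 0.0481). The DRB library was the higher in each of these pairs. Dhcr7 was at 11.3 (sh1137) and 7.82 (scrambled) FPKM with DRB and 7.02 (sh1137) and 5.09 (scrambled) FPKM without DRB. Acat2 was at 7.18 (sh1137) and 5.53 (scrambled) FPKM with DRB and 5.21 (sh1137) and 4.86 (scrambled) FPKM without DRB. Hsd17b7 was at 8.17 (sh1137) and 8.09 (scrambled) FPKM with DRB and 6.24 (sh1137) and 5.11 (scrambled) FPKM without DRB. These 3 were also higher with DRB in both pairs, without a call. Sqle was at 22.3 (sh1137) and 18.2 (scrambled) FPKM with DRB and 29.2 (sh1137) and 25.2 (scrambled) FPKM without DRB. Cyp51 was at 13.6 (sh1137) and 7.97 (scrambled) FPKM with DRB and 15.7 (sh1137) and 10.4 (scrambled) FPKM without DRB. Lss was at 10.6 (sh1137) and 10.2 (scrambled) FPKM with DRB and 10.9 (sh1137) and 9.07 (scrambled) FPKM without DRB. Sqle and Cyp51 were lower with DRB in both pairs, and Lss was nearly level. Pmvk, Fdft1 and Acly were called higher too, at log2 changes of 0.79, 0.92 and 0.70. Among the regulators, Srebf2 was at 44.2 (sh1137) and 34.1 (scrambled) FPKM with DRB and 28.0 (sh1137) and 24.1 (scrambled) FPKM without DRB (0.56 ± 0.15, SE, limma adjusted p = 0.0389) and Scap was at 26.5 (sh1137) and 15.1 (scrambled) FPKM with DRB and 12.6 (sh1137) and 10.9 (scrambled) FPKM without DRB (0.73 ± 0.21, SE, limma adjusted p = 0.0482). Srebf1 was at 54.3 (sh1137) and 27.9 (scrambled) FPKM with DRB and 32.4 (sh1137) and 28.0 (scrambled) FPKM without DRB, higher with DRB in sh1137 cells and level in scrambled cells. Scd1 was at 1.04 (sh1137) and 0.372 (scrambled) FPKM with DRB and 0.276 (sh1137) and 0.10 (scrambled) FPKM without DRB, low throughout. Macrophage markers were higher with DRB as well (8 of 9 called, against 25.9% of all genes, median log2 change 1.01), and their part in these shares was not tested. Of 23 further pathway genes 2 were called higher, against 25.9% of all genes, and 4 lower, against 18.8%. Among the lower was Ggps1, which makes geranylgeranyl diphosphate, at -1.52 ± 0.24 (SE, limma adjusted p = 0.0124).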

How the data were processed

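FPKM values per gene were taken from 6 tables that the authors deposited, made with TopHat 1.3.1, Cufflinks 2.1.1 and Cuffdiff 2.1.1 on mm9, per the submitters' processing notes. Each table gives FPKM with bounds and a status per library, and read counts are not part of these tables, so the depth of a library is unknown and no counting interval is given. Relative depth was read from the spacing of low values. All 28 libraries were mapped to groups by their labels, and 0 sample columns were left unmapped.

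Within each table, log2(FPKM + 1) was fitted with limma 3.58.1 in R 4.3.3 (mean-variance trend; vector plus LPS time or DRB), for genes with a mean of at least 1 FPKM and a good status in every library. The p-values were adjusted by Benjamini-Hochberg over all genes tested. The interaction of vector and treatment is part of the error and could not be tested. Single pairs were given as log2 ratios, with no test, where the mean of the pair was at least 1 FPKM. Upstream sequences come from RefSeq (GRCm38.p6) and are unrelated to the mm9 loci.

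The members and lists (branches, further pathway genes, sterol sensing and efflux, cell cycle and cell type markers) were chosen with earlier results of these data known. Values in every library are given for members with a called hairpin or LPS term and for Srebf1, Srebf2, Insig1 and Scap, and ranges for the rest. Where a symbol had several entries, the most abundant was used. Other pathway genes are named where called, and some listed genes are not reported here. Pseudocounts of 0.1 and 5, other filters, centring, no time term and left-out times were tried.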

Additional observations from a re-analysis of the deposited data

Results flagged for a closer look

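The sign of the Scd2 difference with sh1137 was not the same in all tables. It was lower in both polyA pairs, with log2 ratios of -0.42 after 4 h of LPS and -0.35 untreated, and higher in both stranded 4sU pairs, at 0.82 after 1 h of LPS and 0.64 untreated. The fitted change with sh1137 was 1.12 lower in polyA than in stranded 4sU RNA (a difference of -1.12 on the log2 scale). In the DRB table both pairs were also higher with sh1137, at 0.89 with DRB and 0.62 without it, a difference of -1.14 between polyA RNA and that table. The unstranded 4sU table, which shares the 4 h LPS time, the untreated cells and the LMP control with the polyA table, had Scd2 at 1.77 (sh1137) and 1.82 (LMP) FPKM after 4 h of LPS, a log2 ratio of -0.02, and at 7.33 (sh1137) and 5.03 (LMP) FPKM untreated, a log2 ratio of 0.47. In both comparisons of the polyA table, with the stranded and with the DRB table, every pair of one table lay on the other side of 0 from every pair of the other, and the differences between tables were not tested. The tables were scaled separately, the LPS times differ, and the DRB table used a scrambled control where the others used LMP.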

How the results depend on the processing

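Of 851 recomputed log2 changes of members, 767 kept their direction and side of the threshold, 75 lost the call, 6 gained one and 3 changed sign. Those 3 were Srebf2 and Stard4 with sh1137 in the unstranded table, which ran from -0.034 to 0.048 and from -0.034 to 0.252 when 1 time was left out, and Cyp51 for LPS in polyA RNA, at -0.035 with centred libraries. The members called with sh1137 in the unstranded table were 0 to 0 without 1 time and 0 without the time term, against 1. For LPS at 45 min they were 0 to 3 without another time, 1 with a pseudocount of 5, 1 with centring, and 0 with no filter or no mean-variance trend, against 2. At 2 h they were 2 to 4 without another time and 4 with no filter or a minimum of 5 FPKM, against 7. At 4 h they were 8 to 10 without another time and 7 with a minimum of 5, against 12. LPS in the stranded table had 1 with a pseudocount of 0.1 or a minimum of 5, against 0. DRB had 5 with no filter and 9 with no trend, against 14, and LPS in polyA RNA 5 with no filter, against 13. Set1a+Set1b LPS had 4 with a minimum of 5 and 0 with no trend, against 1, and Pnuts LPS 0 with a pseudocount of 5, no filter or no trend, against 1. The fits with no trend, without an LPS time, and the DRB and 4-library LPS alternatives were chosen after seeing the data. The cause of each shift was not tested, except that leaving out another time keeps the estimate and changes its error. No paired analysis was possible because the labels give 1 library per condition and no shared replicate numbers. With unknown depth, low genes such as Elovl6 after LPS are the least certain.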
